A study of Mus musculus with 8 samples.

Results

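Cytosolic ribosomal proteins are the protein part of the ribosomes that translate nuclear-encoded mRNAs. In this comparison the transcripts of most of those measured were slightly lower in splenic CD11b+Gr-1+ myeloid cells cultured with GM-CSF plus Tff2 than in cells of the same mouse cultured with GM-CSF alone. A gene was counted as a member where at least 1 probe set of the array carried its symbol alone and the symbol began with Rpl or Rps and a digit, or was Rpsa. S6 kinase genes, Rps19bp1 and symbols containing -ps were left out, and where a gene had several such probe sets, the brightest on average over the 8 arrays stood for it. This gave 46 of 12393 genes, 24 of the large and 22 of the small subunit. By symbol these include Rps4l, which RefSeq classes as a transcribed pseudogene, while the other members are protein-coding there. Ribosomal protein genes without a probe set that carried their symbol alone, Rpl5 and Rps27a among them, are not members. The counts therefore cover only part of the family.

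All 8 cultures came from 4 male Tff2-/- mice on a C57BL/6 background, 16 weeks old, so that cells of both groups lacked endogenous Tff2, a secreted trefoil peptide. The mice had received 3% dextran sulphate sodium (DSS), which injures the colon, for 5 days and were killed 14 days later. Gr1+Cd11b+ cells were sorted from each spleen and divided between 2 cultures of 7 days, one with Csf2 (GM-CSF, 5 nM) and one with Csf2 plus 3 µM mouse recombinant Tff2. These concentrations are those of the sample labels, and the study's methods state GM-CSF in a mass unit at an amount that does not match. RNA of each culture was hybridised to 1 Affymetrix mouse array, giving 4 cultures in each group, paired by mouse. The sort was on surface antigen before the culture, and the arrays measured whatever cells were present at its end.

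A ribosome joins a small subunit, which reads the mRNA, to a large subunit, which forms the peptide bond. Each ribosomal protein is needed in step with the others and with the rRNA, and growing cells spend a large share of their transcription on them. The mRNAs of these proteins typically begin with an unbroken run of pyrimidines, the terminal oligopyrimidine tract, through which mTOR signalling controls their translation, and loss of 1 copy of several of the genes causes Diamond-Blackfan anaemia, a failure of red cell production.

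The sequence around the annotated start is shown for 9 of the genes described here, because the pyrimidine run is a feature that the choice of members did not use. Each line gives the 15 bases before and the 15 bases from the annotated start in RefSeq (GRCm38.p6), on the coding strand, and capitals mark the longest run of C or T where it reached 6 letters. The run was sought on both sides of the start and need not lie in the transcript. In Rps27l and Rpl39l it ends before the start. Rpl37, Rps25 and Rpl27, which are described below, are not shown. The runs of Rpl37 and Rps25 also end before the start, and the longest run of Rpl27 had 5 letters.
Rpl35: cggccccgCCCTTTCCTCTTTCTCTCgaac
Rpl14: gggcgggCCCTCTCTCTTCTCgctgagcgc
Rps18: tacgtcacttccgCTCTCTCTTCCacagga
Rpl22l1: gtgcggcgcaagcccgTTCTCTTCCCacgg
Rps6: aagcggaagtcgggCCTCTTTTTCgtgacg
Rps27l: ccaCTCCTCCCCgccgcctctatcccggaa
Rpl39l: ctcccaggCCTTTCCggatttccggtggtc
Rps7: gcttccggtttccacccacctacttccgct
Rpl11: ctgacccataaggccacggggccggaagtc
The windows lie at chr2:39005117-39005146 on the minus strand (Rpl35), chr9:120571502-120571531 on the plus strand (Rpl14), chr17:33955651-33955680 on the minus strand (Rps18), chr3:28805493-28805522 on the plus strand (Rpl22l1), chr4:86857353-86857382 on the minus strand (Rps6), chr9:66946071-66946100 on the plus strand (Rps27l, the first of its annotated starts), chr16:10170213-10170242 on the plus strand (Rpl39l), chr12:28635939-28635968 on the minus strand (Rps7) and chr4:136053379-136053408 on the minus strand (Rpl11).

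All 46 genes were found in RefSeq by gene identifier, and 40 had a start window in the table used. A run of at least 6 C or T letters on the coding strand was present in 26 of the 40 windows (65.0%), against 33.5% of 9887 measured genes with a window and 32.7% of all 27025 genes of the table. The same length of A or G letters, which is the run read on the other strand, was present in 7.5% of the members' windows and in 34.8% of those of measured genes. Mitochondrial ribosomal protein genes, whose products work in a separate ribosome, had the C or T run in 33.8% of 65 windows. Among members whose transcript was lower with Tff2, as described next, 8 of 11 windows held the run, and 18 of 29 of the others did. Runs before the start were counted too, and those of Rpl37, Rps25 and Rps27l lie wholly before it. A second motif, CCGGAAG or its complement CTTCCGG, the core bound by ETS factors, was searched on both strands from 250 bases before to 50 bases after the start and was present in 20 of 40 members, against 16.3% of measured genes. It was present in 8 of the 11 lower members and 12 of the 29 others. These matches describe the letters in the windows and are no evidence that a factor binds there.

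The signal of most of the 46 ribosomal protein genes was lower with Tff2, by a small amount. The difference, as log2 signal with GM-CSF plus Tff2 minus GM-CSF alone averaged over 4 mice, was negative in 42 of 46 genes (91.3%), against 55.5% of all genes. Its median over the members was -0.15 on the log2 scale, a change of -9.62%, with quartiles of -0.23 and -0.08, against a median of -0.03 over all genes. Within mice 1 to 4 the members' median was -0.18, -0.08, -0.21 and -0.14. The mean log2 signal over the 46 genes was 11.52 to 11.66 in the 4 control cultures and 11.34 to 11.46 in the 4 with Tff2, with no overlap. Ribosomal protein probe sets are among the brightest of the array, and the 356 other genes with a mean signal above 12 had a median difference of 0.04.

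In the test across all probe sets (limma with mouse as a block, Benjamini-Hochberg adjusted p under 0.05), 11 of the 46 genes fell (23.9%) and 1 rose (2.17%), where 13.3% of all genes fell and 14.5% rose. The signal was lower in 4 of 4 mice in 32 members (69.6%), against 24.6% of all genes, and in 21 members (45.7%) all 4 cultures with Tff2 lay below all 4 with GM-CSF alone, against 13.8% of all genes. Without the block, 13 members fell (28.3%, with 11.2% of all genes) and none rose (12.4% of all genes), and 9 of those 13 were among the 11. The number of members that fell was 6 to 8 when both cultures of 1 mouse were left out, 7 without mouse 1, 6 without mouse 2, 6 without mouse 3 and 8 without mouse 4. In these fits 1593, 2298, 1637 and 1856 of all 22626 probe sets fell, against 2716 with all 4 mice. When each array was centred on its median, 17 members fell, and the share of rises among all probe sets called moved from 53.3% to 42.3%.

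**Figure D1:**
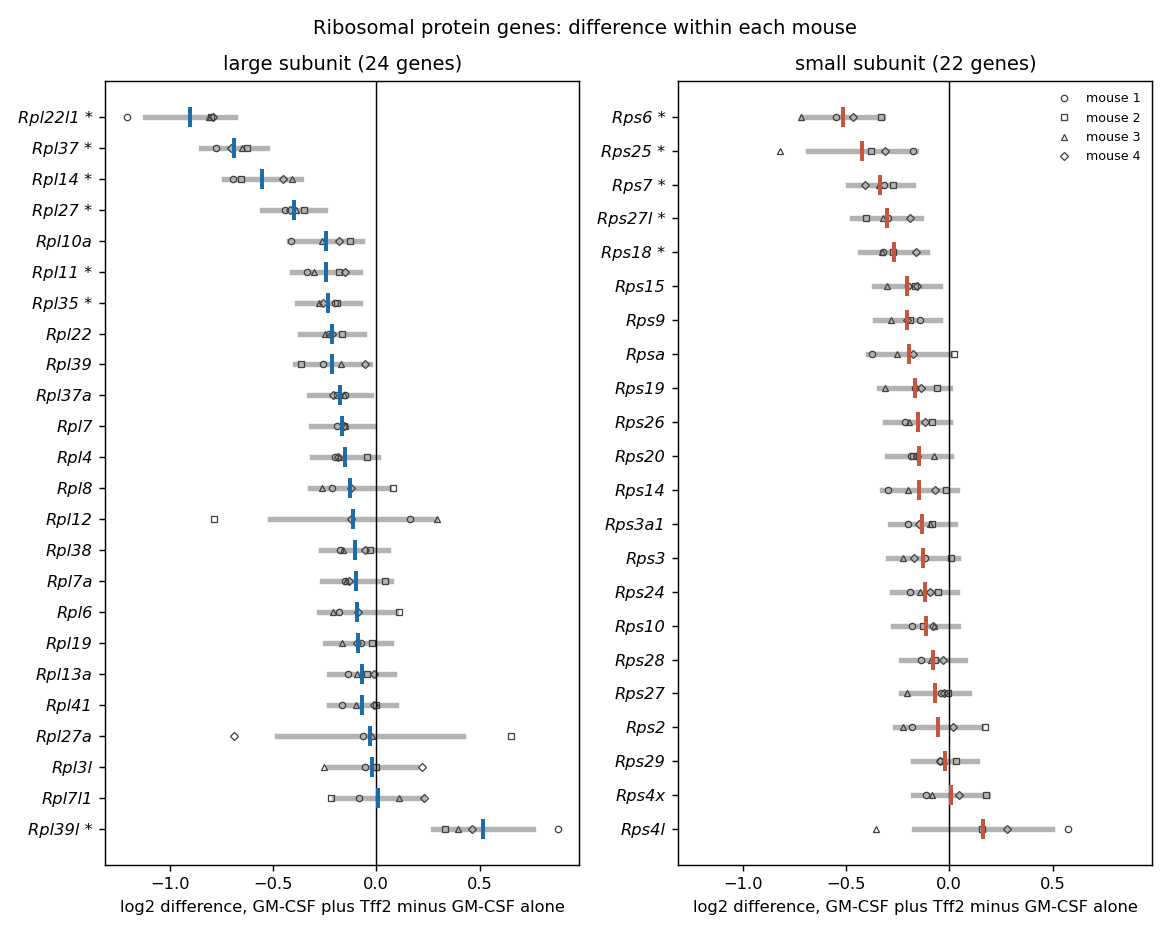
Log2 difference in signal (GM-CSF plus Tff2 minus GM-CSF alone, x axis) of each ribosomal protein gene, large subunit left and small subunit right, ordered by the mean difference. Open symbols are the 4 mice, coloured ticks the mean, grey bars its 95% confidence interval, and asterisks mark the 12 genes past the threshold. Means lie left of 0 in 42 of 46 genes, and Rpl39l, with a mean of 0.52, is the gene past the threshold on the right.

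The lower signal was found in both subunits. Of 24 large-subunit genes 6 fell and 1 rose, with a median of -0.14, and of 22 small-subunit genes 5 fell and 0 rose, with a median of -0.15. The median of the large subunit minus that of the small subunit was -0.0046, -0.066, 0.049 and -0.00065 in mice 1 to 4 (SD 0.047), so that the difference between subunits had no common direction over the mice. With only the genes whose 2 group means were above 10, the medians were -0.16 for 16 large-subunit genes and -0.15 for 18 small-subunit genes.

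**Figure D2:**
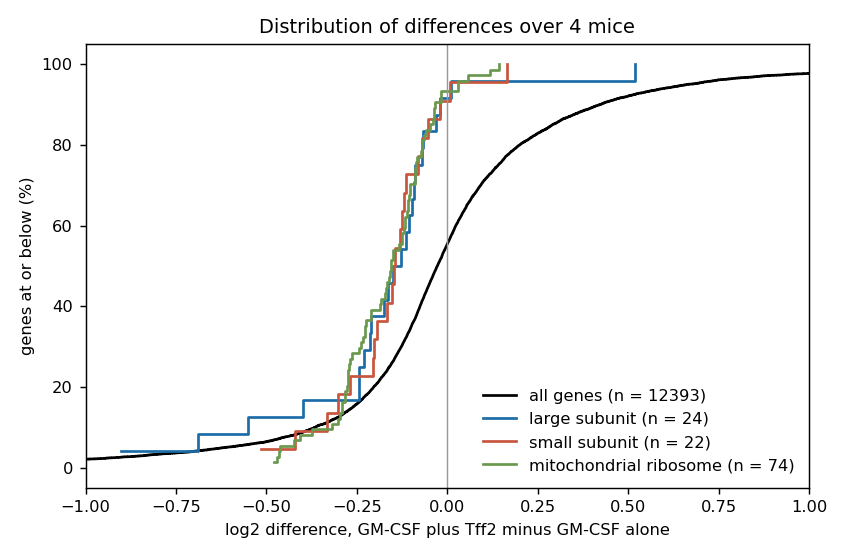
Cumulative share of genes (y axis, %) with a mean log2 difference at or below the value on the x axis, for 24 large-subunit genes, 22 small-subunit genes, 74 mitochondrial ribosomal protein genes and all 12393 genes. The curves of both cytosolic subunits run close together and cross 50% near their medians of -0.14 and -0.15, left of the median of -0.03 of all genes.

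The largest fall among the members was that of Rpl22l1, which encodes a paralogue of the RNA-binding large-subunit protein Rpl22. Its log2 signal was 12.40, 12.45, 12.39 and 12.52 with GM-CSF alone and 11.20, 11.65, 11.59 and 11.73 with Tff2 in mice 1 to 4. Every culture with Tff2 lay well below every control culture, and mouse 1 had the lowest value. The difference was -0.90 (SE 0.09, n = 4 mice, limma adjusted p = 0.000898), so that the signal fell by 46.5%. Rpl22 itself measured 12.70, 12.77, 12.79 and 12.85 with GM-CSF alone and 12.47, 12.61, 12.55 and 12.63 with Tff2, groups that do not overlap, but its difference of -0.21 had a limma adjusted p of 0.0502 with the block and 0.0459 without it. The difference was more negative for Rpl22l1 than for Rpl22 in each mouse, with differences between the 2 genes of -0.98, -0.64, -0.56 and -0.57 in mice 1 to 4, and the exact sign-flip permutation test (two-sided) gave p = 0.125, the smallest that 4 mice allow (0.208 after Benjamini-Hochberg adjustment over the 5 pairs of a paralogue and its relative that were compared).

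Rpl37, a zinc-binding large-subunit protein, measured 10.48, 10.51, 10.63 and 10.72 with GM-CSF alone and 9.71, 9.89, 9.98 and 10.02 with Tff2. The fall was of nearly the same size in each mouse and the groups did not overlap, with a difference of -0.69 (SE 0.07, limma adjusted p = 0.000769). Its only probe set is of the kind that shares probes with other transcripts. Rpl14, another protein of the large subunit, measured 6.77, 7.01, 6.87 and 6.71 against 6.08, 6.36, 6.46 and 6.26, a difference of -0.55 (SE 0.08, limma adjusted p = 0.0031), again without overlap. Rpl27, mutated in some families with Diamond-Blackfan anaemia, measured 13.08, 13.04, 13.15 and 13.17 against 12.64, 12.69, 12.76 and 12.75. All 4 mice were close to the mean difference of -0.40 (SE 0.07, limma adjusted p = 0.0051), and its other 2 probe sets, neither of the kind that shares probes with other transcripts, differed by -0.46 (limma adjusted p = 0.0035) and -0.21 (limma adjusted p = 0.058). The brighter of these, the second, stands for the gene once the chosen one is left out for shared probes, and the call is then lost.

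Rpl11 and Rpl35 fell less. Rpl11 belongs to the particle of the large subunit that also binds the p53 regulator Mdm2. It measured 13.11, 13.01, 13.23 and 13.16 with GM-CSF alone and 12.78, 12.83, 12.93 and 13.01 with Tff2. The highest culture with Tff2 lay just below the lowest control culture, and the difference of -0.24 (SE 0.07) had a limma adjusted p of 0.0431 with the block and 0.0518 without it. Rpl35, which lies at the exit of the nascent chain tunnel, measured 13.85, 13.86, 13.92 and 13.94 against 13.65, 13.67, 13.65 and 13.68, 2 tight groups that do not overlap, with a difference of -0.23 (SE 0.07, limma adjusted p = 0.0401). The calls of both were lost when any single mouse was left out and under cyclic loess scaling.

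In the small subunit the largest fall was that of Rps6, the protein phosphorylated by S6 kinases in response to mTOR signalling. Its log2 signal was 9.33, 9.24, 9.73 and 9.40 with GM-CSF alone and 8.78, 8.91, 9.01 and 8.93 with Tff2. The groups did not overlap, mouse 3 fell most, and the difference was -0.52 (SE 0.08, limma adjusted p = 0.0049), so that the signal fell by 30.0%. Rps25, which some viral internal ribosome entry sites need for initiation, measured 8.57, 8.64, 8.96 and 8.42 against 8.39, 8.26, 8.14 and 8.11. The groups were separated by a narrow margin, and mouse 3 alone fell by 0.82, so that the difference of -0.42 (SE 0.11, limma adjusted p = 0.0317) did not pass without mouse 2, 3 or 4. Rps7, another Diamond-Blackfan gene, measured 13.97, 13.98, 14.12 and 14.18 against 13.65, 13.70, 13.79 and 13.77, with no overlap and a difference of -0.33 (SE 0.07, limma adjusted p = 0.011), but its remaining probe set did not pass once those that share probes with other transcripts were left out (limma adjusted p = 0.158).

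Rps27l, a paralogue of Rps27 known as a p53 target, measured 12.62, 12.73, 12.53 and 12.52 with GM-CSF alone and 12.33, 12.32, 12.21 and 12.33 with Tff2. Its groups did not overlap, the difference was -0.30 (SE 0.07, limma adjusted p = 0.0199), and its other 2 probe sets, both called lower, differed by -0.31 and -0.29. The call did not pass without mouse 1, 2 or 3. Rps18, a protein of the head of the small subunit, measured 13.49, 13.39, 13.63 and 13.63 against 13.17, 13.12, 13.30 and 13.46. It was lower in each mouse, but the mice differed in level and the groups overlapped, so that the difference of -0.27 (SE 0.07) had a limma adjusted p of 0.0276 with the block and 0.0734 without it, and did not pass without mouse 1, 2 or 3.

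**Figure D3:**
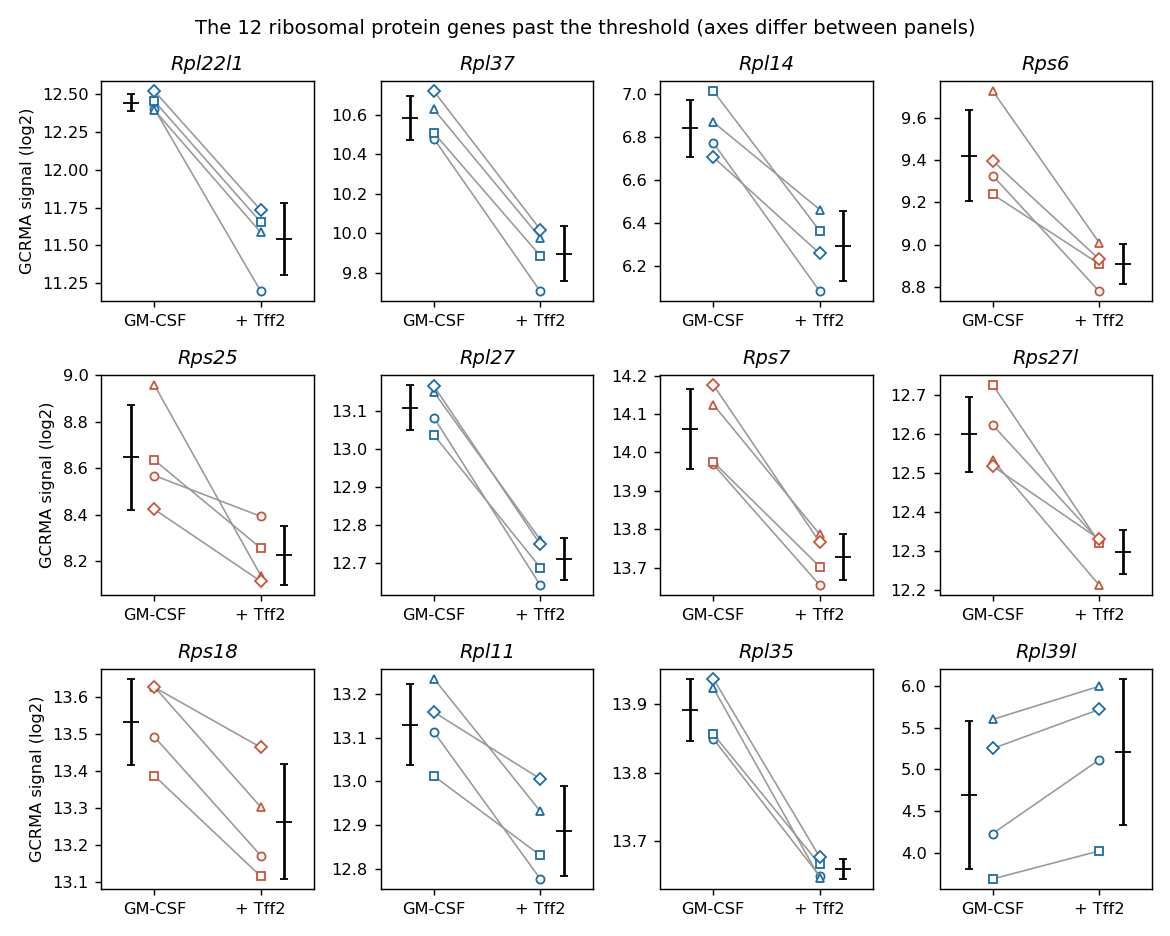
Log2 signal (y axis, a separate scale in each panel) of the 12 ribosomal protein genes past the threshold in control cultures (GM-CSF) and in those that also had Tff2 (+ Tff2), blue for the large and red for the small subunit. Lines join the 2 cultures of a mouse (circle, square, triangle and diamond for mice 1 to 4), and black bars show the group mean and SD. In 11 panels all lines fall, and in that of Rpl39l all rise while the mice differ widely in level.

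The member that rose was Rpl39l, a paralogue of the exit tunnel protein Rpl39 best known from the testis. It measured 4.24, 3.70, 5.60 and 5.25 with GM-CSF alone and 5.12, 4.03, 5.99 and 5.72 with Tff2. The groups overlapped widely, with larger gaps between mice than between the cultures of 1 mouse, and the signals lay not far above the background level of 3.60. Within mice the difference was 0.52 (SE 0.10, higher in 4 of 4 mice, limma adjusted p = 0.0109), whereas without the block the adjusted p was 0.511. With the 3′ minus 5′ signal of Actb, a measure of RNA integrity, as a covariate in place of the block, the estimate was -0.58. Rpl39 measured 5.96, 6.03, 5.95 and 5.90 with GM-CSF alone and 5.71, 5.67, 5.78 and 5.84 with Tff2, a difference of -0.21 that did not pass (limma adjusted p = 0.0877). The difference of Rpl39l minus that of Rpl39 was 1.14, 0.70, 0.56 and 0.52 in mice 1 to 4 (exact sign-flip permutation test, two-sided, p = 0.125, the smallest possible, and 0.208 adjusted over the 5 pairs). A probe set that lists Rpl39 with other symbols was brighter than the chosen one. The pair therefore rests on a dimmer probe set, which may not stand for the gene.

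Of the 6 measured paralogues of ribosomal protein genes, the pseudogene Rps4l among them, Rpl22l1 and Rps27l fell and Rpl39l rose. The other 3 did not pass: Rps4l had a difference of 0.16 (SE 0.14), Rpl7l1 of 0.01 (SE 0.09) and Rpl3l, the muscle form of Rpl3, of -0.02 (SE 0.09) at signals below the background level. The differences of Rpl7l1 and Rpl3l changed sign under other scalings. In the remaining pairs, Rps27l minus Rps27 was -0.26, -0.40, -0.12 and -0.16 in mice 1 to 4 (exact sign-flip permutation test, two-sided, p = 0.125), with the chosen probe set of Rps27 at background. A probe set that lists Rps27 with other symbols was brighter. The signs were mixed for Rps4l minus Rps4x, at 0.69, -0.02, -0.27 and 0.23 (exact permutation p = 0.75), and for Rpl7l1 minus Rpl7, at 0.11, -0.06, 0.26 and 0.39 (exact permutation p = 0.25). With the paralogues left out, the median of the remaining 40 genes was -0.15, and 9 of them fell, where 13.3% of all genes fell.

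The other 34 members did not pass the test. Their differences ran from -0.25 to 0.16, 31 were negative, 21 were lower in 4 of 4 mice, and in 7 the unadjusted 95% confidence interval lay below 0. Rps19, the gene most often mutated in Diamond-Blackfan anaemia, had a difference of -0.17 (95% confidence interval -0.34 to 0.0047, limma adjusted p = 0.143). Rps14, whose loss is known from a form of myelodysplastic syndrome, had -0.14 (-0.32 to 0.04), and Rpl13a, which also takes part in translational silencing in interferon-treated myeloid cells, had -0.07 (-0.23 to 0.09), while its other 3 probe sets lay between -0.63 and -0.11 and 2 of them fell. Rpsa, which is also described as a laminin receptor, measured 13.26, 13.11, 13.39 and 13.35 with GM-CSF alone and 12.89, 13.14, 13.14 and 13.18 with Tff2. It was lower in 3 mice and not in mouse 2, with a difference of -0.19 (-0.39 to 0.0030, limma adjusted p = 0.138). At the other end of the members, Rps29 and Rps4x had differences of -0.02 and 0.01, with intervals of -0.17 to 0.13 and -0.18 to 0.19.

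By their place in the ribosome or their link to disease, the members were as follows. Of 22 listed Diamond-Blackfan genes 13 were members, of which Rpl27, Rps7, Rpl11 and Rpl35 fell, and the differences of all 13 were negative, with the chosen probe set of Rps27 at background (3.21 and 3.14). These counts stand beside 23.9% lower and 91.3% negative over all members. Of 4 measured proteins of the nascent chain tunnel and its exit, Rpl35 fell. Neither Rps2 nor Rps3, which line the entry of the mRNA channel, passed, with differences of -0.05 and -0.13, and 0 of 4 proteins at its exit passed.

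The array represents many ribosomal protein genes by several probe sets. The 46 genes had 98 probe sets of their own, and 36 of the 52 that were not chosen had the sign of the chosen one. Of the 33 not chosen with a mean above 10, from 17 genes, 29 were negative, 9 fell and 0 rose, where 12.0% of all probe sets fell and 13.7% rose. Rps9, a small-subunit protein, had a difference of -0.20 in its chosen probe set (mean 13.37 with GM-CSF alone) and of -0.13 in a second bright one (12.57), while its remaining, dim one rose by 0.79 on the log2 scale, from 5.31 to 6.10. Another 101 probe sets listed a ribosomal protein symbol together with other symbols and were not counted for any gene. Of these, 90 were negative, 26 fell and 1 rose, with a median of -0.13. For 9 members, Rpl37, Rpl14, Rps6, Rps25, Rpl39 and Rps27 among them, such a shared probe set was brighter than the one chosen, so that the gene stands in these counts by a dimmer probe set. For the first 4 of these, which fell, 15 of 16 brighter shared probe sets were negative, with a median of -0.30.

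Genes that work with the ribosome were described from 6 lists. Of 170 measured genes 56 fell and 8 rose. This count and those of each list below stand beside 13.3% lower and 14.5% higher over all genes. The 3 measured genes of the P stalk and Fau, which complete the set of ribosomal proteins without an Rpl or Rps number, did not pass, with differences of -0.05 for Rplp2, -0.04 for Rplp0 (0.0043 under cyclic loess scaling) and -0.05 for Fau. The list of elongation, termination and nascent chain factors, which also held Nap1l1, had a median of -0.33, and 8 of 13 fell. Eef1b2, the exchange factor of elongation factor eEF1A, fell by 0.35 on the log2 scale (SE 0.07), and Nap1l1, a histone chaperone whose mRNA also carries the pyrimidine tract, fell by 0.80 (SE 0.08). Etf1, the termination factor that reads stop codons, rose by 0.37 (SE 0.07), a call lost when its probe sets were averaged.

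Initiation factors had a median of -0.15, and 9 of 28 fell and 0 rose. The 3 with the smallest adjusted p were subunits of the scaffold eIF3: Eif3m fell by 0.58, Eif3i by 0.36 and Eif3e by 0.37 on the log2 scale, the last a call lost without probe sets that share probes with other transcripts. Of 85 ribosome biogenesis genes 28 fell and 1 rose, with a median of -0.21. The nucleolar protein Nop16 fell by 1.12 (SE 0.09), and Sdad1 and Rsl1d1, factors of large subunit maturation and of the nucleolus, fell by 0.53 and 0.50. The 1 that rose, named after its value was seen, was Heatr1 (0.43), a factor of rRNA transcription and early processing.

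RNA polymerase I transcribes the rRNA precursor. Of 16 genes of its subunits and factors 7 fell and 0 rose, with a median of -0.25. Taf1d, a subunit of the promoter selectivity factor, fell by 0.92 (SE 0.13), Polr1e by 0.42 and Polr2e, a subunit shared by the nuclear polymerases, by 0.41, and the last 2 calls were lost without probe sets that share probes. Of 25 growth signalling genes around mTOR and Myc, 6 rose (24.0%, with 14.5% of all genes) and 4 fell (16.0%, with 13.3% of all genes), and the median was 0.02. Deptor, an inhibitor of mTOR, rose by 0.78 (SE 0.08), while Mxd3, a partner of Max, fell by 0.88 (SE 0.10) and Sesn3, a sestrin that restrains mTOR complex activity, fell by 1.81 (SE 0.21), to a mean of 3.39 that is below the background level. The other 2 that fell, named after their values were seen, were Sesn2 (-0.57) and Mycn (-0.40, below background), and the other 5 that rose were Ddit4 (1.60), Mlxip (0.55), Mxd1 (0.49), Mxi1 (0.43) and Mnt (0.38).

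**Figure D4:**
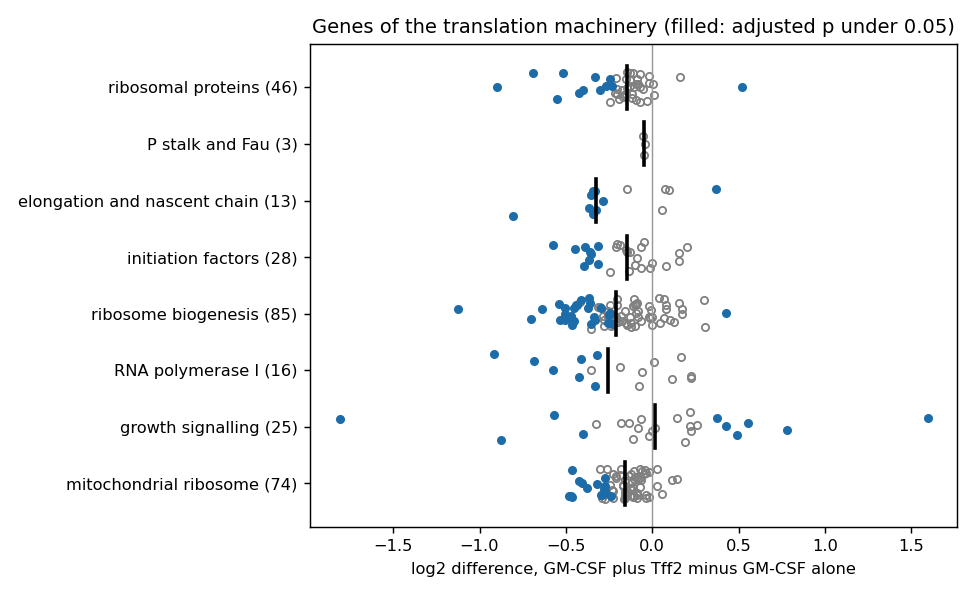
Mean log2 difference over 4 mice (x axis) of each measured gene of the ribosomal protein genes, the 6 lists of the translation machinery and the mitochondrial ribosome, with the number of genes in parentheses. Filled points passed the threshold, and black bars mark the medians. All medians are negative except that of growth signalling (0.02).

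The cytosolic ribosomal proteins were not alone in their direction. Of 74 mitochondrial ribosomal protein genes 16 fell (21.6%) and 0 rose, with a median of -0.16, and 69 were negative (93.2%). The shares over all genes were 13.3% lower, 14.5% higher and 55.5% negative. No difference between these and the cytosolic genes was tested.

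Cell type markers and the Actb measure of RNA integrity moved with the groups, and their part in the lower ribosomal protein signal was not tested. In bulk cultures fewer cells of a type and less RNA per cell cannot be told apart. All 14 measured neutrophil genes rose, with the log2 of their summed signal at 15.22 to 16.12 in control cultures and 16.51 to 16.73 in those with Tff2. Of 10 basophil and mast cell genes 7 rose (7.69 to 9.0 against 12.06 to 12.93), and of 10 genes of dendritic cells and of MHC class II presentation 9 fell (14.81 to 15.17 against 12.97 to 13.52). Of 10 macrophage genes 5 rose and 2 fell, C1qa and C1qb. Over all genes 14.5% rose and 13.3% fell. Above background were 0 of 9 B cell, 1 of 9 T and NK cell (Thy1), 0 of 5 erythroid and 1 of 8 stromal or endothelial genes (Pecam1). In the test 1 T and NK cell gene fell, and 1 stromal or endothelial gene rose and 2 fell. Itgam, which encodes CD11b, measured 12.35 with GM-CSF alone and 12.72 with Tff2, well above background, and Tff2 itself was below background in both groups (2.45 and 2.28).

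The 3′ minus 5′ difference of Actb was 0.53 ± 0.09 (SD, n = 4) with GM-CSF alone and 0.70 ± 0.05 (n = 4) with Tff2. Its ranges, 0.42 to 0.62 and 0.66 to 0.74, did not overlap. The same difference of Gapdh did overlap, with a mean of 0.22 (0.13 to 0.31) with GM-CSF alone and 0.26 (0.22 to 0.29) with Tff2. With the Actb difference as a covariate in place of the block, 5 of the 46 members fell and their median difference was -0.25. Because the Actb ranges of the groups did not overlap, this fit separates covariate and group poorly. In that fit 1079 of all 22626 probe sets fell, against 2716 with the block. Pairs of arrays correlated at 0.992 to 0.998 within a group and at 0.985 to 0.992 between groups over all probe sets, and no pair was a duplicate.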

How the data were processed

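RNA of 8 cultures from 4 mice was measured on Affymetrix mouse expression arrays. The authors deposited log2 signal values made with GCRMA (GCRMA 2.30.0 and affy 1.36.0 in the submitters' notes), which subtracts modelled background, quantile-normalizes the arrays and summarises each probe set. The quantile step sets the arrays to a common distribution before probe sets are summarised, so that a change shared by all transcripts cannot be seen. Precision is limited by the 4 arrays per group. The values were used as deposited, without renormalization.

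Of 22690 probe sets 64 controls were left out. Symbols came from the platform annotation: 20380 probe sets had 1 symbol, 691 several and 1555 none, and no gene was named from a probe set with several. The 22626 probe sets were fitted with limma 3.58.1 in R 4.3.3 (lmFit and eBayes, group plus mouse as a block), adjusted by Benjamini-Hochberg over the whole set, with a threshold of 0.05. The labels give both cultures of a mouse the same animal number and the methods state that its cells were split, which pairs the cultures. In a check on the 12416 probe sets with signal above background, the deviations of the 2 cultures of a mouse from their group means correlated at 0.05, 0.54, 0.32 and 0.40, against -0.55 to 0.35 for cultures of different mice. The background level of 3.60 is the 95th percentile of the group means of 39 genes of other tissues.

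The genes named were up to 6 per subunit with the smallest adjusted p among members past the threshold, in 1 direction in 4 of 4 mice and above background, the 3 largest rises and falls, the paralogues, a set of well known members, and 3 genes per pathway list with the smallest adjusted p. Further members named as examples were chosen after their values were seen. The members, the lists and these rules were chosen with earlier results of these data known. On data simulated over 22626 probe sets with 201 changed, the share recovered was 0% for a log2 change of 0.15, 1.49% for 0.3 and 71.6% for 1, with no false calls. In the real data 2716 probe sets fell and 3095 rose. With so few changed, the adjustment was stricter in the simulation, so these shares do not give the recovery in the real data.

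Alternatives were no block, other scalings (median centring, quantile, cyclic loess chosen after seeing the data), an offset of 32, trended and robust priors, array weights, a filter on dim probe sets, leaving out each mouse, the mean of all probe sets of a gene, leaving out probe sets with the suffix _x_at or _s_at (which share probes with other transcripts), the Actb covariate, a threshold of 0.01 and a test against 1.2-fold.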

Additional observations from a re-analysis of the deposited data

Results flagged for a closer look

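In 2 of 77 groups of 4 cultures tested, 1 culture stood apart from the other 3 by Dixon's criterion at 95% (chance marks about 1 group in 20). With GM-CSF plus Tff2, the Rps27l signal of mouse 3 was 12.21, below the nearest culture at 12.32. In the same group the Rpsa signal of mouse 1 was 12.89, below the nearest culture at 13.14.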

How the results depend on the processing

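The median difference of the members stayed negative in every alternative, from -0.25 with the Actb covariate to -0.11 with cyclic loess, and lay 0.09 to 0.24 below that of all probe sets. Estimates with the Actb covariate are poorly determined, because it did not overlap between the groups. Without the replicate block 13 members fell and 0 rose, 8 large and 5 small; the calls of Rps18, Rpl11 and Rpl39l were lost and no other call of a gene named by the rule was. Of the 12 members past the threshold, Rpl22l1 and Rpl37 passed wherever they were tested. Rpl37 could not be tested without _x_at and _s_at probe sets, because its only probe set has the suffix _x_at. The number of mice limits the counts. Causes of the changes below were not tested.

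Counts of members that fell, 11 in the report, were 17 with median centring, 20 with the offset, 23 with trended and robust priors, 5 with the Actb covariate, 5 at 0.01, 3 against 1.2-fold and 6 to 8 without 1 mouse. Among all 22626 probe sets, 2716 fell in the report. In the same order these became 3535, 1923, 2990, 1079, 1266 and 856, and 1593 to 2298 without 1 mouse. For the large subunit, 6 became 10, 10, 11, 3 with the covariate and 3 against 1.2-fold, and 4 without any 1 mouse. For the small subunit, 5 became 10 with the offset, 12 with the priors, 2 with the covariate, 1 at 0.01, 0 against 1.2-fold and 2 to 4 without 1 mouse. The 1 rise became 0 without the block, with the covariate, at 0.01 and against 1.2-fold, and members that rose were 2, with 1 in the small subunit, without _x_at and _s_at probe sets. Of pathway genes, 56 that fell became 20 with the covariate, 23 at 0.01, 7 against 1.2-fold and 28 to 47 without 1 mouse, and 8 that rose became 5, 3 and 2 under the first 3 of these. Of mitochondrial ribosomal genes, 16 became 26 with median centring, 1 with the covariate, 2 at 0.01, 0 against 1.2-fold and 3 to 11 without 1 mouse.

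The median of the large subunit was -0.19 with median centring, -0.27 with the covariate, -0.12 with cyclic loess and -0.17 to -0.14 without 1 mouse, and that of the small subunit was -0.23 with the covariate. Large minus small subunit turned to -0.046 when all probe sets of a gene were averaged. Signs turned for Rpl39l (-0.58, covariate), for Rpl7l1 (-0.039 with median centring, -0.0047 with quantile, -0.0072 with cyclic loess, -0.060 with probe sets averaged, and -0.065 to 0.086 without 1 mouse, negative without mouse 3 or 4), for Rpl3l (0.011 with quantile, and -0.10 to 0.056 without 1 mouse, positive without mouse 3) and for Rplp0 (0.0043 with cyclic loess).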
